A study of Mus musculus with 3 samples.

Results

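The genes described here are 6 cell-cell adhesion genes of the skin epithelium: the classical cadherins Cdh1 (E-cadherin) and Cdh3 (P-cadherin), the epithelial adhesion molecule Epcam, and the nectins Pvrl1, Pvrl2 and Pvrl4, which the tables hold under their older symbols (now Nectin1, Nectin2 and Nectin4). They were taken by symbol, and all 6 were among the 14656 genes present in both count tables. The data were single-cell RNA counts of dorsal skin epithelium from wild-type C57BL/6JOlaHsd mouse embryos at E14.5 of embryonic development, made with 10x Genomics 3′ chemistry, version 2, in which a unique molecular identifier (UMI) marks every RNA molecule that was captured. Epithelial sheets of 3 to 4 littermates went into each sample, so a library is a pool of embryos. The p-values of the class comparisons weigh a class difference against how much that difference varied over 3 such pools. Level differences between the pools themselves are taken out by the fit. It leaves 2 residual degrees of freedom, so much of each gene's spread is borrowed from that of all genes. After staining for MAdCAM-1, an antigen of placode cells, live cells were sorted as MAdCAM-1-positive, placode-enriched cells (2 libraries, stated to be biological replicates) or as total epithelium (1 library). Both kinds of library were wild type and passed through the same Dispase II and TrypLE digestion, so the sort was the one labelled difference between them.

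Adherens junctions hold epithelial cells together through cadherins, whose extracellular domains bind the same cadherin on the next cell and whose tails bind beta-catenin and, through alpha-catenin, the actin cytoskeleton. Nectins are immunoglobulin-like adhesion molecules that bind each other across the cell border and are tied to actin by afadin, and Epcam is a membrane glycoprotein of simple and progenitor epithelia that associates with claudin-7. In embryonic skin, E-cadherin is found throughout the epidermis, while P-cadherin is known from the basal layer and from the hair placode, the local thickening of the epidermis from which the hair follicle grows. Cells that leave the basal layer upward become suprabasal cells and start the keratinising programme.

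On the mouse build GRCm38 (mm10 in the submitters' processing notes; GENCODE annotation), Cdh3 lies on chromosome 8 from 106510891 to 106557297 and Cdh1 follows it on the same strand from 106603351 to 106670246, with 46053 bases between them. Epcam lies on chromosome 17 (87635979 to 87651129), Pvrl1 on chromosome 9 (43743984 to 43807461), Pvrl2 on chromosome 7 (19716644 to 19750483, minus strand) and Pvrl4 on chromosome 1 (171370099 to 171388598). All 6 are annotated as protein coding. RefSeq promoter windows (GRCm38.p6, 250 bases before to 50 after the start of the gene) were matched for 3 of the 6 members. These 3 were the windows at hand, and they are shown because regulators of adhesion genes tested further on bind known motifs. Starts here are those of RefSeq, which for Pvrl2 and Pvrl4 lie inside the GENCODE gene bounds given above, not at their edge. Capitals mark CAGGTG or its reverse complement CACCTG, the E-box bound by Snail and Zeb repressors.
Epcam, chr17:87635729-87636028, plus strand: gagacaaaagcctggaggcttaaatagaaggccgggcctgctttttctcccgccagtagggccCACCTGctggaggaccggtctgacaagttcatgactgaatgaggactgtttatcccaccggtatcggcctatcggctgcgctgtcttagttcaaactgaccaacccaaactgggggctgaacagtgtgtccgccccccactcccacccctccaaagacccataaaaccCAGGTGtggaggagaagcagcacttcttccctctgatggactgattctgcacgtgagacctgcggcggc
Pvrl2, chr7:19749524-19749823, minus strand: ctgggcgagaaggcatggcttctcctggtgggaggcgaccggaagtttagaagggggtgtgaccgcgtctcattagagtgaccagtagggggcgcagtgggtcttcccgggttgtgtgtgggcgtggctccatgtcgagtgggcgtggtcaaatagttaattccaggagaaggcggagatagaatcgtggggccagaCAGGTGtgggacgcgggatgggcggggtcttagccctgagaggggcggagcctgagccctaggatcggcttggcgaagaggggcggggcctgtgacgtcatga
Pvrl4, chr1:171369923-171370222, plus strand: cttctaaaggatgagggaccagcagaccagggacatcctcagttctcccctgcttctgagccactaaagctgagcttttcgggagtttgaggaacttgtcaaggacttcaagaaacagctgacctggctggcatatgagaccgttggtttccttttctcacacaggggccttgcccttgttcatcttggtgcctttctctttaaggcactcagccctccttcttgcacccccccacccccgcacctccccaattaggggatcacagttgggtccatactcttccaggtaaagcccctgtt
The Epcam window held 2 matches, beginning 187 and 19 bases before the start of the gene, the Pvrl2 window 1, beginning 53 bases before it, and the Pvrl4 window 0. Of all 32851 promoter windows of this length, 20.2% held at least 1 match on either strand. The Grhl motif AACCGGTT, which is its own reverse complement, was as an exact run in 0 of these 3 windows and in 0.146% of all windows. Shorter or variant forms were not searched, and the inner bases ACCGGT do occur in the Epcam window. A match is a run of letters and was not tested as a binding site.

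After removal of called doublets (0.265% and 0.255% of cells in the placode-enriched libraries and 0.687% in the total epithelium library) there were 1507 and 1567 placode-enriched cells and 1590 total epithelium cells, with a median of 21652, 23419 and 21977 UMIs per cell in the deposited libraries. Pairs of libraries shared 1 to 2 cell barcodes. Cells were clustered without the 6 adhesion genes or any marker, and clusters were named from marker genes. Suprabasal-like cells (Krt1, Krt10, Krtdap) came from 1 cluster and numbered 38 and 49 in placode-enriched libraries 1 and 2 and 305 in the total epithelium library. Placode-like cells (named by markers such as Dkk4, Edar, Shh and Fgf20, not all high in each cluster) came from 4 clusters and numbered 648 and 741 against 80. Cluster 2, led by histone genes, held 13.3% and 13.5% of them in the placode-enriched libraries, against 45.0% in total epithelium. The part of this mix in the placode-like values was not tested. Basal-like cells (Krt5, Krt14, Krt15, Trp63) also came from 4 clusters and numbered 253 and 242 against 1089. The basal-like cells of the placode-enriched libraries lay mostly in cluster 9, which was led by mitotic genes such as Cenpf and Ube2c (87.7% and 91.7%), while those of the total epithelium library lay in clusters 0, 3 and 4 (35.9%, 23.7% and 38.7%). Clusters without enough markers were left unnamed, with 37.6% and 34.1% of placode-enriched cells and 5.91% of total epithelium cells. The gate sets these shares, so they are not compared here.

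**Figure D1:**
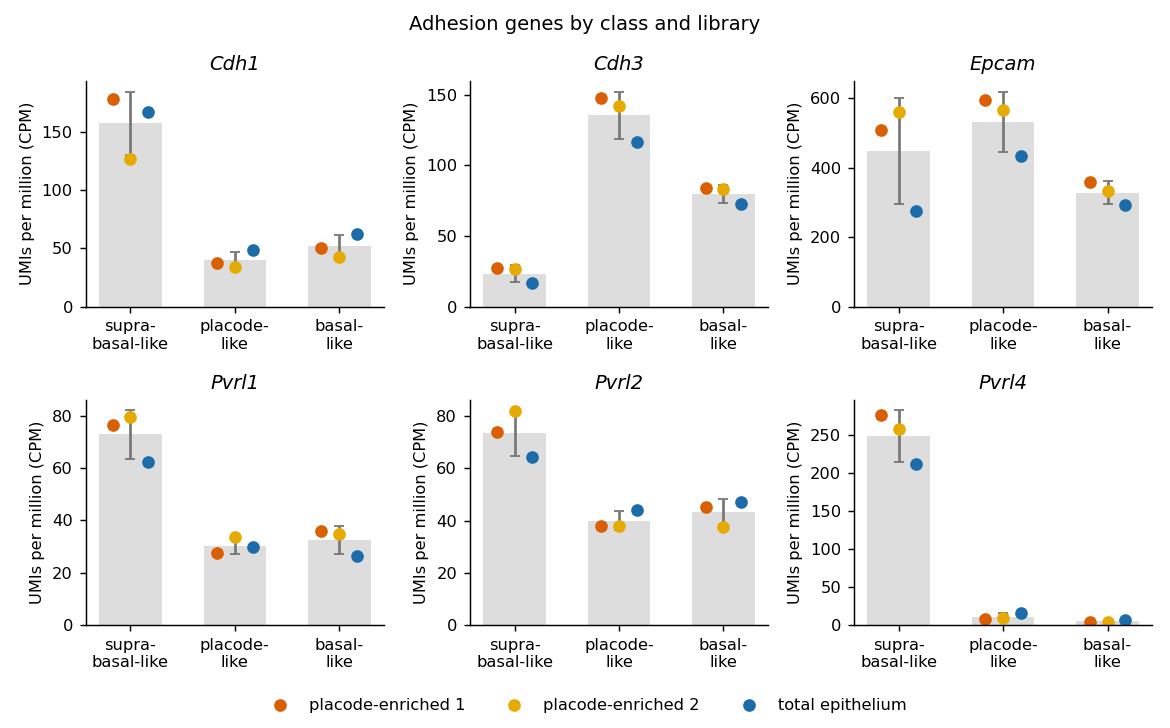
Level of each adhesion gene in suprabasal-like, placode-like and basal-like cells, in UMIs of the gene per 1000000 UMIs of the class (CPM). Points are the 3 libraries, bars their mean and error bars their SD (n = 3). Cdh1, Pvrl1, Pvrl2 and Pvrl4 were highest in suprabasal-like cells in all 3 libraries, and Cdh3 was highest in placode-like cells in all 3.

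The 2 cadherins ran in opposite directions over the classes. Cdh1, the E-cadherin gene, stood at 178 and 127 CPM in the suprabasal-like cells of placode-enriched libraries 1 and 2 and at 167 CPM in those of the total epithelium library, where CPM is the gene's UMIs per 1000000 UMIs summed over the class. In placode-like cells the same libraries gave 36.9, 33.9 and 48.1 CPM, and in basal-like cells 50.1, 42.8 and 62.2 CPM. Suprabasal-like values were above all others without overlap, and within each library the placode-like value was the lowest of the 3 classes, although placode-like and basal-like values overlapped across libraries.

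Cdh1 was therefore 2.93-fold higher in suprabasal-like than in basal-like cells (log2 1.55 ± 0.09 (SE), adjusted p = 4.51e-08) and 3.91-fold higher than in placode-like cells (log2 1.97 ± 0.11, adjusted p = 4.84e-07). Against basal-like cells it was 1.31-fold lower in placode-like cells (log2 -0.39 ± 0.07, adjusted p = 2.53e-04), and the log2 ratio was -0.44, -0.34 and -0.37 in the 3 libraries. These tests are edgeR's quasi-likelihood tests on UMIs summed per library and class over 3 libraries with the library as a block, adjusted over all genes tested. Without the library block the placode-like difference had the same size (log2 -0.43) and an adjusted p of 0.108, within a range of 2.90e-06 to 0.108 over the 15 alternatives.

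Cdh3, the P-cadherin gene, stood at 27.0 and 26.6 CPM in the suprabasal-like cells of placode-enriched libraries 1 and 2 and at 16.7 CPM in those of the total epithelium library. Placode-like cells gave 148, 142 and 117 CPM and basal-like cells 84.0, 83.4 and 72.7 CPM in the same libraries. The 3 classes did not overlap. Cdh3 was 1.70-fold higher in placode-like than in basal-like cells (log2 0.77 ± 0.06, adjusted p = 2.64e-10). In suprabasal-like cells it was 3.75-fold lower than in basal-like cells (log2 -1.91 ± 0.12, adjusted p = 9.94e-08) and 6.16-fold lower than in placode-like cells (log2 -2.62 ± 0.12, adjusted p = 1.18e-07).

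Both cadherins bind the same catenins, and their balance was also expressed as the Cdh3 share of all Cdh1 and Cdh3 UMIs, a ratio that does not depend on how the libraries are scaled. UMIs of 3′ tags do not grow with transcript length, and the share describes captured RNA, not protein. In suprabasal-like cells Cdh3 made up 13.1% (exact 95% binomial interval 9.10 to 18.1) and 17.3% (12.9 to 22.5) of these UMIs in placode-enriched libraries 1 and 2 and 9.08% (7.63 to 10.7) in the total epithelium library. In placode-like cells the shares were 80.0% (78.5 to 81.5), 80.7% (79.3 to 82.1) and 70.8% (65.2 to 76.0). In basal-like cells they were 62.6% (59.7 to 65.5), 66.1% (63.1 to 69.0) and 53.9% (52.2 to 55.6). Thus, summed over each class, P-cadherin UMIs outnumbered E-cadherin UMIs in placode-like and basal-like cells and were the minority in suprabasal-like cells, in every library. The basal-like majority did not hold inside every cluster. In total epithelium, cluster 4 (38.7% of basal-like cells) had 549 Cdh3 and 616 Cdh1 UMIs, a Cdh3 share of 47.1%. Its interval just reached equal shares. Clusters 0, 3 and 9 had shares of 59.7%, 51.7% (47.8 to 55.5) and 64.3% there. In placode-enriched libraries 1 and 2 cluster 4 gave 33.3% and 26.1% (9 and 7 cells), and cluster 9 gave 64.2% and 67.1%. Placode-like cluster 2 gave 73.8% and 70.5% in these libraries and 60.3% (50.8 to 69.3) in total epithelium. The last value lies within the range of the basal-like shares over libraries. The intervals cover counting error only.

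Within libraries, the placode-like share was above the basal-like share by 17.4, 14.6 and 16.9 percentage points (mean 16.3 ± 1.48 (SD), n = 3). The suprabasal-like share was below the basal-like share by 49.5, 48.7 and 44.8 points (mean difference -47.7 ± 2.51) and differed from the placode-like share by -66.9, -63.4 and -61.7 points (mean -64.0 ± 2.66). Each mean difference exceeded the spread between libraries. With 3 libraries an exact 2-sided sign-flip permutation test cannot go below p = 0.25, which was its value for each difference.

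**Figure D2:**
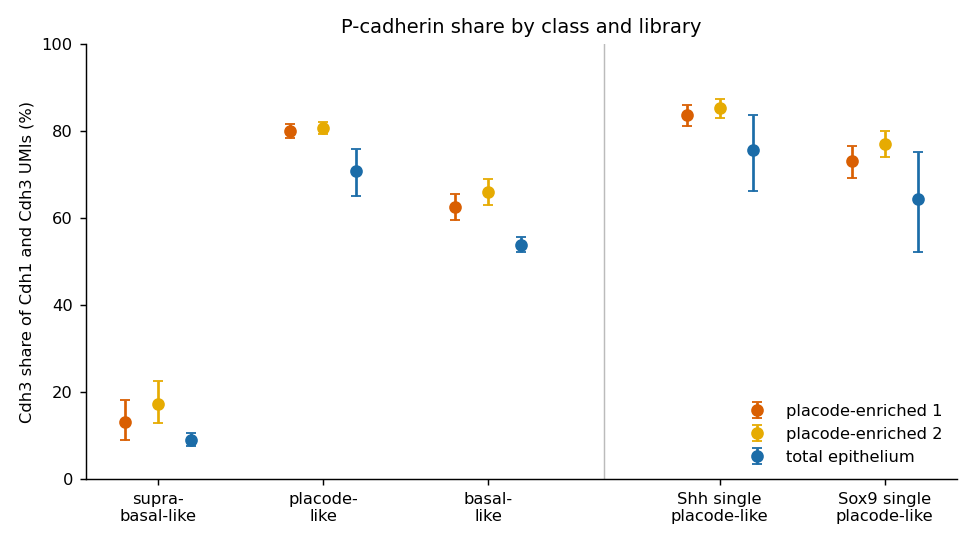
Cdh3 share of Cdh1 and Cdh3 UMIs (percent) by class and library. Points are libraries and error bars exact 95% binomial intervals. Left of the line, suprabasal-like cells lie between 9.08% and 17.3%, placode-like cells between 70.8% and 80.7% and basal-like cells between 53.9% and 66.1%. Right of the line, placode-like cells are split by their Shh and Sox9 UMIs.

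Many single cells held both cadherin transcripts. A Cdh1 UMI was found in 95.9% ± 4.08 (SD, n = 3) of suprabasal-like, 53.7% ± 3.55 of placode-like and 73.6% ± 4.44 of basal-like cells. A Cdh3 UMI was found in 45.5% ± 11.02, 88.1% ± 2.74 and 84.8% ± 8.22 of cells of these classes. With every cell thinned to 5000 UMIs the Cdh1 shares became 57.6%, 19.1% and 23.6% and the Cdh3 shares 12.3%, 48.7% and 31.9%, in the same order of classes. Cells with UMIs of both cadherins made up 48.0%, 45.2% and 47.5% of placode-like cells and 68.8%, 63.2% and 55.6% of basal-like cells in placode-enriched libraries 1 and 2 and the total epithelium library. Suprabasal-like cells gave 52.6%, 44.9% and 31.5%. Median depths were 22001, 22463 and 21694 UMIs in placode-like, 32693, 33924 and 21921 in basal-like and 28766.5, 34408 and 24242 in suprabasal-like cells. Cells with both were not counted after thinning, so depth enters these shares. Free RNA in droplets can add to such shares, and no class here is known to lack both cadherins. Melanoblast-like cells, which are known to carry cadherins too, had a Cdh3 UMI in 50% of 22 cells at a median depth of 21282.5 UMIs.

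Summed over each class, Epcam was higher in placode-like than in basal-like cells in all 3 libraries. It stood at 596 and 568 CPM in placode-like cells of placode-enriched libraries 1 and 2 and at 435 CPM in those of the total epithelium library, against 358, 333 and 294 CPM in basal-like cells. The 2 classes did not overlap, and Epcam was 1.62-fold higher in placode-like cells (log2 0.70 ± 0.04, adjusted p = 2.03e-11). Placode-like cluster 2 did not share this rise of Epcam in the placode-enriched libraries, as described further on. High Epcam was also not confined to placode-like clusters. In total epithelium, basal-like cluster 3 had 410 CPM of Epcam, while basal-like clusters 0 and 4 had 266 and 255 CPM. Unnamed cluster 5 had 517 CPM there, and 404 and 339 CPM in placode-enriched libraries 1 and 2. In suprabasal-like cells the level depended on the library, with 508 and 562 CPM after the sort and 276 CPM in total epithelium. The difference from basal-like cells passed the threshold (log2 0.33 ± 0.11, adjusted p = 0.0335), but the log2 ratio was 0.50 and 0.75 in placode-enriched libraries 1 and 2 and -0.09 in total epithelium, and the call held in 7 of 15 alternatives. In 7 others the value kept its direction and missed the threshold, and with genes scaled before clustering, an alternative chosen after seeing the data, it turned to -0.27. Against placode-like cells, suprabasal-like Epcam was lower (log2 -0.33 ± 0.10, adjusted p = 0.0278), a call that was also lost in 7 of 15 alternatives. Without the total epithelium library the 2 differences were 0.59 and -0.16. Without placode-enriched library 2 the difference from basal-like cells was 0.19 (adjusted p = 0.146), and without placode-enriched library 1 the difference from placode-like cells was -0.36 (adjusted p = 0.0849). Over the alternatives the adjusted p-values ran from 1.05e-23 to 0.297 for the first and from 7.49e-09 to 0.440 for the second.

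Pvrl4, encoding nectin-4, had the steepest difference of the 6 genes. It stood at 277 and 258 CPM in the suprabasal-like cells of placode-enriched libraries 1 and 2 and at 211 CPM in those of the total epithelium library. Placode-like cells of these libraries had 8.17, 9.36 and 15.8 CPM, and basal-like cells 4.32, 4.00 and 6.59 CPM. The suprabasal-like level was 44.0-fold that of basal-like cells (log2 5.46 ± 0.16, adjusted p = 1.41e-10) and 25.6-fold that of placode-like cells (log2 4.68 ± 0.18, adjusted p = 3.65e-08). The log2 ratio to basal-like cells was 6.00 and 6.01 in placode-enriched libraries 1 and 2 and 5.002 in total epithelium, and the fitted value was 4.41 with unnamed clusters counted as basal.

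Nearly every suprabasal-like cell held a Pvrl4 UMI (99.1% ± 1.51 (SD, n = 3)), against 16.4% ± 4.36 of placode-like and 9.56% ± 2.60 of basal-like cells. After thinning to 5000 UMIs the shares were 70.1%, 6.19% and 1.98%. In melanoblast-like cells of the total epithelium library 1 of 22 cells (4.55%) had a Pvrl4 UMI. Between the 2 low classes, Pvrl4 was 2.19-fold higher in placode-like than in basal-like cells (log2 1.13 ± 0.17, adjusted p = 1.29e-05) and the log2 ratio was 0.92, 1.22 and 1.27 in the 3 libraries. With unnamed clusters counted as basal, that difference turned to -0.45 (adjusted p = 0.0736), and the unnamed cluster 8, described further on, had 179, 182 and 240 CPM of Pvrl4 in the 3 libraries. Its adjusted p ran from 4.25e-09 to 0.0736 over the alternatives.

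The other 2 nectins rose in suprabasal-like cells to a lesser degree. Pvrl1, encoding nectin-1, stood at 76.5, 79.7 and 62.4 CPM in suprabasal-like cells of placode-enriched libraries 1 and 2 and total epithelium, against 36.1, 34.8 and 26.5 CPM in basal-like cells. It was 2.21-fold higher (log2 1.15 ± 0.11, adjusted p = 2.69e-06) and did not overlap. Pvrl2, encoding nectin-2, stood at 73.9, 82.1 and 64.5 CPM in suprabasal-like cells, against 45.2, 37.5 and 47.0 CPM in basal-like cells, and was 1.62-fold higher (log2 0.69 ± 0.12, adjusted p = 6.44e-04). Against placode-like cells the log2 differences were 1.23 ± 0.12 for Pvrl1 and 0.86 ± 0.13 for Pvrl2 (adjusted p = 2.46e-05 and 4.33e-04).

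Between placode-like and basal-like cells these nectins did not pass the threshold. Pvrl1 stood at 27.5, 33.6 and 29.99 CPM in placode-like cells and Pvrl2 at 38.0, 37.9 and 44.1 CPM, both within the range of the basal-like values. The log2 differences were -0.16 ± 0.10 and -0.12 ± 0.08 (adjusted p = 0.209 and 0.276). Pvrl1 passed the threshold without the total epithelium library (-0.22, adjusted p = 0.0301), and Pvrl2 at clustering resolution 2 (-0.22, adjusted p = 0.0338) or with the other gene set (-0.23, adjusted p = 0.0496). Without placode-enriched library 1 the differences were 0.02 for Pvrl1 and -0.02 for Pvrl2. The adjusted p-values began at these passing values, and the highest adjusted p over the alternatives was 0.981 for Pvrl1 and 0.925 for Pvrl2.

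Counted over the members, 3 were higher and 1 lower in placode-like than in basal-like cells, against a background of 18.3% of 6029 tested genes called higher and 17.7% called lower (35.9% in all). In suprabasal-like against basal-like cells 5 were higher and 1 lower, with 33.5% of 5786 genes called in either direction (16.5% higher, 17.0% lower). In suprabasal-like against placode-like cells 4 were higher and 2 lower, with 35.3% of 5568 genes called (17.9% higher, 17.4% lower). All 6 members passed the filter on low counts in each. These comparisons share class sums, so their calls are not independent. The median log2 difference of the members was 0.29, 0.92 and 1.05 in the 3 comparisons, beside medians of -0.00406, -0.03 and -0.01 over all tested genes. Summed fibroblast markers (6 of 8 in both tables) moved with the placode-like class, at 1294 and 1118 CPM in the placode-enriched libraries and 1560 CPM in total epithelium, against 768, 623 and 835 CPM in basal-like cells. In suprabasal-like cells they stood at 177, 151 and 298 CPM. Col1a1, a defining fibroblast gene, was at 0 in 4 of the 9 sums of 3 classes. Their part in these differences was not tested.

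**Figure D3:**
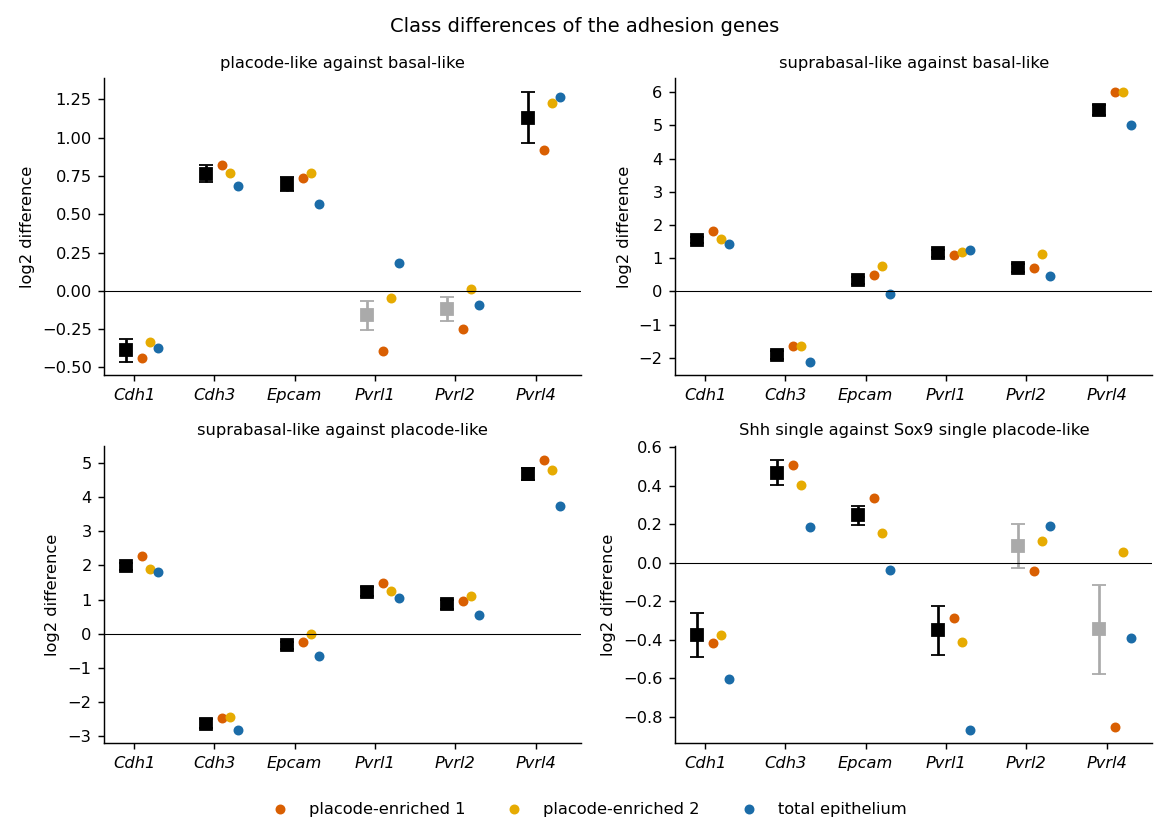
Log2 difference of each adhesion gene in 4 comparisons. Squares with bars are the fitted log2 fold change ± SE over 3 libraries (black where the adjusted p was under 0.05, grey where not), and coloured points are the ratios of CPM within each library. The points of Cdh1, Cdh3 and Pvrl4 lie on one side of 0 in the 3 class comparisons, while those of Epcam fall on both sides in suprabasal-like against basal-like cells.

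The cadherins also varied among clusters of a class. Cluster 6, the placode-like cluster led by Dkk4 and Shh, had 36.9 and 33.8 CPM of Cdh1 and 156 and 155 CPM of Cdh3 in placode-enriched libraries 1 and 2. Cluster 2, the placode-like cluster led by histone genes of S phase, had 41.7 and 40.7 CPM of Cdh1 and 118 and 97.4 CPM of Cdh3 there. In total epithelium, where it held 45.0% of placode-like cells, cluster 2 had 54.1 CPM of Cdh1 and 82.3 CPM of Cdh3. Among clusters 0, 3 and 4, which held most basal-like cells of total epithelium, cluster 4 had the highest Cdh1 (73.0 CPM) and the lowest Cdh3 (65.0 CPM), and cluster 0 the lowest Cdh1 (53.4 CPM) and the highest Cdh3 (79.1 CPM). Epcam reached 1136 and 1085 CPM in cluster 12 (57 and 51 cells of the placode-enriched libraries, led by S100a9 and Fgf20). The leading genes of cluster 12 also included Epcam itself and mitotic genes such as Cenpa and Ccnb2. Cluster 10, the largest placode-like cluster of these libraries, was led by Ube2c and Nusap1 and had 636 and 644 CPM of Epcam. Cluster 2 had 316 and 297 CPM, below the basal-like cells of the same libraries, and 341 CPM in total epithelium, above them. Cluster 12 had 51.0 and 47.1 CPM of Cdh1 and 133 and 134 CPM of Cdh3. These clusters were singled out after their values were seen, and the values are descriptions with no test.

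An unnamed cluster of 84 cells was nearer to suprabasal-like than to basal-like cells in its cadherins and Pvrl4. Cluster 8, whose leading genes were Grhl3, Zfp750, Alcam and Pvrl4, held 36 and 40 cells of the placode-enriched libraries and 8 of total epithelium, and met 3 of the 8 suprabasal markers where 4 were required, with 3 of 7 basal and 2 of 9 placode markers. Its Pvrl4 level was 179, 182 and 240 CPM and its Cdh1 level 130, 117 and 163 CPM. Cdh3 was at 47.3, 34.4 and 17.1 CPM, and the Cdh3 share of cadherin UMIs was 26.7%, 22.7% and 9.52%. Pvrl1 (57.6, 71.1 and 51.4 CPM) and Pvrl2 (87.1, 87.7 and 51.4 CPM) were above the basal-like values of the same library in each case. The values of total epithelium rest on 8 cells, and 2 to 28 UMIs for the genes named other than Epcam. The largest unnamed cluster, cluster 1 (656 cells, led by Wif1 and Bdnf, with 5 of 9 placode markers where 6 were required), had 45.1, 34.7 and 43.1 CPM of Cdh1 and 122, 134 and 129 CPM of Cdh3. Its Cdh3 share was 72.9%, 79.5% and 75.0%, within the range of placode-like cells over the 3 libraries. In placode-enriched library 1 that share lay between those of basal-like (62.6%) and placode-like cells (80.0%). Its Epcam, at 384, 359 and 336 CPM, was nearer to basal-like than to placode-like values in each library. The third, cluster 5 (456 cells, led by Sostdc1 and Igfbp5), had Cdh3 shares of 58.6%, 62.4% and 55.1%, within the range of basal-like cells over the 3 libraries.

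**Figure D4:**
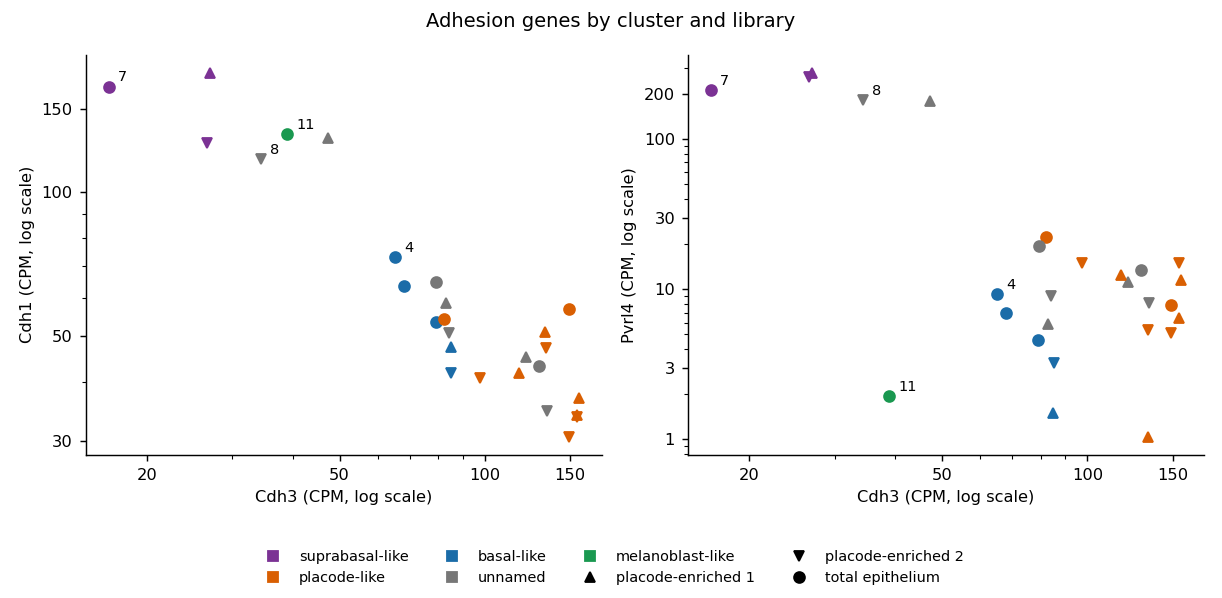
Cdh1 against Cdh3 (left) and Pvrl4 against Cdh3 (right) in CPM on log axes, for each cluster and library with at least 20 cells (27 points). Colours are classes and marker shapes libraries, and numbers name clusters 4, 7, 8 and 11. Suprabasal-like cluster 7 and unnamed cluster 8 lie at high Cdh1 and Pvrl4 and low Cdh3, apart from all plotted placode-like and basal-like points. Basal-like cluster 4 had 9 and 7 cells in the placode-enriched libraries and is not plotted for them. Over the 3 libraries it reached 112 CPM of Cdh1 and 44.9 CPM of Pvrl4, and its lowest Cdh3 was 35.4 CPM.

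The melanoblast-like cells of total epithelium, pigment cell precursors in the epidermis, had 132 CPM of Cdh1 and 38.9 CPM of Cdh3. They had 21.4 CPM of Epcam, against 294 CPM in the basal-like cells of the same library, and 1.95 CPM of Pvrl4, a single UMI. Pvrl1 stood at 7.79 CPM and Pvrl2 at 27.3 CPM. The class held 22 cells, so these are values of 1 small sum.

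Inside the placode, Shh single cells (at least 1 Shh UMI and none of Sox9; 233, 263 and 31 cells) were compared with Sox9 single cells (the reverse; 146, 169 and 17 cells), since these genes mark different parts of the early follicle. Cdh3 was higher in Shh single cells, at 172, 166 and 129 CPM in placode-enriched libraries 1 and 2 and total epithelium, against 121, 125 and 114 CPM in Sox9 single cells (log2 0.47 ± 0.07, adjusted p = 9.83e-07). Cdh1 was lower, at 33.5, 28.7 and 41.4 CPM against 44.7, 37.1 and 62.8 CPM (log2 -0.38 ± 0.11, adjusted p = 0.0171). The groups overlapped over libraries for Cdh1 and did not overlap for Cdh3. The P-cadherin share was 83.7%, 85.2% and 75.7% in Shh single cells, against 73.0%, 77.1% and 64.4% in Sox9 single cells, a mean difference of 10.0 ± 1.71 points (SD, n = 3; exact sign-flip p = 0.25, the smallest possible).

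Epcam was higher in the fit (log2 0.25 ± 0.05, adjusted p = 2.01e-04), with 670, 579 and 453 CPM in Shh single cells against 531, 521 and 464 CPM in Sox9 single cells, so that total epithelium showed no rise. Pvrl1 was lower (log2 -0.35 ± 0.13, adjusted p = 0.0482), at 24.9, 27.8 and 19.9 CPM against 30.4, 36.9 and 36.3 CPM. Pvrl2 (log2 0.09 ± 0.11) and Pvrl4 (log2 -0.35 ± 0.23) did not pass the threshold (adjusted p = 0.688 and 0.357). Thus 2 members were higher and 2 lower, where 18.7% of 5365 tested genes were called in either direction (9.13% higher, 9.52% lower). Shh single cells were shallower, with medians of 19126, 19961 and 16825 UMIs, against 23992.5, 28637 and 24016 UMIs in Sox9 single cells. With cells thinned to 5000 UMIs, which leaves fewer counts, 0 of the 4 calls were left, and with DESeq2 1. The thinned log2 differences were 0.30 for Cdh3, -0.50 for Cdh1, 0.09 for Epcam and -0.44 for Pvrl1, so that those of Cdh1 and Pvrl1 were no smaller than before. When libraries were left out, Cdh3 kept its call each time. Cdh1 lost it without placode-enriched library 1 (-0.39) or 2 (-0.42), Epcam without library 1 (0.14) and Pvrl1 without each of the 3 libraries in turn (-0.44 to -0.33).

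Over all cells, 4 members passed the threshold between the 2 placode-enriched libraries and the single total epithelium library, a comparison with no replicate in total epithelium. In the placode-enriched libraries Cdh3 stood at 114 and 114 CPM, against 63.8 CPM in total epithelium (log2 0.88 ± 0.12, adjusted p = 2.41e-05), and Epcam at 474 and 455 CPM, against 297 CPM (log2 0.68 ± 0.11, adjusted p = 2.02e-04). Cdh1 was at 50.6 and 43.8 CPM, against 84.3 CPM (log2 -0.80 ± 0.12, adjusted p = 7.22e-05), and Pvrl4 at 19.6 and 22.5 CPM, against 50.8 CPM (log2 -1.23 ± 0.12, adjusted p = 1.51e-06). Pvrl1 and Pvrl2 did not pass the threshold (log2 0.07 ± 0.12 and -0.26 ± 0.12, adjusted p = 0.718 and 0.104). Of the members 2 were higher and 2 lower, where 31.9% of 13716 tested genes were called (17.1% higher, 14.8% lower). A sum over all cells mixes the makeup of a library with the level per cell, and the spread of total epithelium, with 1 library, was taken to equal that of the placode-enriched pair.

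Whether the class differences were themselves different after the sort was tested with class-by-sort terms over the 9 sums for 6172 genes. Total epithelium again is 1 library, so these terms set that library against the placode-enriched pair and cannot tell the sort from the library. For the suprabasal-like difference 2 of 6 members were called, where 5.49% of genes were. The suprabasal-like difference from basal-like cells was larger in the placode-enriched libraries by 0.64 on the log2 scale for Epcam and by 0.90 for Pvrl4. The fit leaves 2 residual degrees of freedom and has 1 library of total epithelium. Its calls thus rest on spread borrowed from all genes, and a gene's own spread between pools hardly enters them. For the placode-like difference, with 1.17% of genes called, 0 of 6 members were. With edgeR, 1 of these 6 (Epcam, log2 0.17 ± 0.07) had an unadjusted p under 0.05. The suprabasal-like cells of the 2 sorts also differed in other genes. Sox9 stood at 73.1 and 99.0 CPM after the sort, against 12.9 CPM in total epithelium, the summed suprabasal markers at 6088 and 5984 CPM against 15586 CPM, and the summed periderm markers (5 of 6 in both tables) at 103 and 99.0 CPM against 28.2 CPM. The basal-like cells they were set against came mostly from cluster 9 after the sort and from clusters 0, 3 and 4 in total epithelium. The part of these differences in the class-by-sort results was not tested.

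The partners of the cadherins were read from a list of 18 catenins and linkers, of which 17 were in both tables and 15 passed the filter. In placode-like against basal-like cells 5 rose and 3 fell (list median log2 0.03), beside 18.3% and 17.7% of all tested genes. Ctnnb1, beta-catenin, which joins cadherins to alpha-catenin and also carries Wnt signals, averaged 1156 CPM in placode-like and 525 CPM in basal-like cells (log2 1.14 ± 0.04, adjusted p = 2.37e-16), and Tjp1, the junctional scaffold ZO-1, rose by 0.98 on the log2 scale (adjusted p = 9.94e-07). Lima1, an actin binder at junctions, and Vcl, vinculin, fell by 1.33 and 0.87 (adjusted p = 9.72e-12 and 3.41e-05). In suprabasal-like against basal-like cells 8 rose and 2 fell (list median 0.53), beside 16.5% and 17.0% of all tested genes. Jup, plakoglobin, which serves both adherens junctions and desmosomes, averaged 517 CPM in suprabasal-like and 91.8 CPM in basal-like cells (log2 2.43 ± 0.08, adjusted p = 5.58e-10), and Ssx2ip, an afadin-binding protein, rose by 2.84 (adjusted p = 1.56e-09). Ajuba and Ctnnb1 fell by 1.66 and 0.40 (adjusted p = 2.72e-08 and 0.0109). The 2 armadillo partners thus differed in direction, Ctnnb1 being higher in placode-like than in suprabasal-like cells and Jup the reverse (suprabasal-like against placode-like, log2 -1.53 ± 0.13 for Ctnnb1 and 2.56 ± 0.08 for Jup, adjusted p = 9.21e-06 and 1.58e-08). In that comparison 8 of 15 rose and 3 fell (list median 0.85), beside 17.9% and 17.4%.

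Of the other nectin and nectin-like genes, 4 of 6 were in both tables and all 4 rose in placode-like against basal-like cells (list median 1.33), where 18.3% of all tested genes did, among them Pvrl3, encoding nectin-3, at a mean of 15.0 against 5.77 CPM (log2 1.40 ± 0.16, adjusted p = 2.63e-07) and Cadm4 (log2 1.41 ± 0.40, adjusted p = 8.03e-03). In suprabasal-like against basal-like cells 1 rose and 1 fell (list median 0.79), beside 16.5% and 17.0% of all tested genes. Pvrl3 averaged 34.4 CPM in suprabasal-like cells (log2 2.24 ± 0.30, adjusted p = 7.01e-05), and Cadm1, a nectin-like adhesion molecule, averaged 34.7 CPM there against 88.1 CPM in basal-like cells (log2 -1.62 ± 0.23, adjusted p = 1.29e-04). Pvrl3 was thus higher in both classes than in basal-like cells. So was Pvrl4, although its placode-like difference changed direction with unnamed clusters counted as basal.

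Of 8 genes around Epcam 7 were tested, and 4 rose and 2 fell in placode-like against basal-like cells (list median 0.56; 18.3% and 17.7% of all tested genes). Cldn7, the claudin that associates with Epcam, averaged 16.2 CPM in placode-like and 4.84 CPM in basal-like cells (log2 1.74 ± 0.15, adjusted p = 3.02e-09), and Spint1, a protease inhibitor, rose by 0.75 (adjusted p = 1.30e-05). Cd9, a tetraspanin, fell by 0.26 (adjusted p = 1.40e-05). In suprabasal-like against basal-like cells 6 of 7 rose and 0 fell (list median 1.11; 16.5% and 17.0% of all tested genes). Cd44, a hyaluronan receptor, averaged 25.0 CPM there against 4.96 CPM in basal-like cells (log2 2.39 ± 0.26, adjusted p = 1.12e-05).

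Among 20 regulators of cadherin genes, 15 were tested. In placode-like against basal-like cells 6 rose and 2 fell (list median 0.10; 18.3% and 17.7% of all tested genes), with Snai3, a Snail family repressor, at 6.78 against 1.23 CPM (log2 2.45 ± 0.24, adjusted p = 4.35e-08), the corepressor Ctbp2 up by 0.84 (adjusted p = 1.72e-08), and Klf4 and Snai2 lower (log2 -0.99 and -0.46, adjusted p = 1.37e-08 and 6.11e-05). In suprabasal-like against basal-like cells 6 rose and 5 fell (list median -0.05; 16.5% and 17.0% of all tested genes). Grhl1 and Grhl3, grainyhead-like activators of epithelial junction genes, averaged 67.8 and 180 CPM in suprabasal-like cells against 3.52 and 12.2 CPM in basal-like cells (log2 4.19 ± 0.20 and 3.80 ± 0.15, adjusted p = 6.47e-09 and 1.56e-09). Snai2, Slug, fell by 2.02 (adjusted p = 6.08e-07) and Ovol2 by 0.95 (adjusted p = 5.42e-03). Of 10 genes of cadherin turnover, 1 rose and 1 fell in placode-like against basal-like cells (list median 0.05; 18.3% and 17.7% of all tested genes). Of the same 10 genes, 6 rose and 0 fell in suprabasal-like against basal-like cells (list median 0.61; 16.5% and 17.0% of all tested genes), among them Rab11a, a recycling endosome GTPase (log2 1.53 ± 0.08, adjusted p = 1.44e-08). Of 21 other cadherin genes 7 were in both tables and 3 passed the filter. Cdh7 rose and Cdh4 fell in placode-like cells (log2 1.76 ± 0.36 and -1.02 ± 0.24, adjusted p = 5.07e-04 and 1.81e-03), and Cdh4 and Cdh13 fell in suprabasal-like cells (log2 -2.45 ± 0.41 and -1.17 ± 0.30, adjusted p = 5.19e-04 and 8.78e-03), with means of at most 6.88 CPM and list medians of -0.20 and -1.17, where 35.9% and 33.5% of all tested genes were called.

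Over the 9 sums of 3 classes in 3 libraries, Pearson's r of log2(CPM + 1) between Cdh1 and Cdh3 was -0.97, and Cdh1 ran with Pvrl2 (0.94), Pvrl4 (0.92) and Pvrl1 (0.89), while Epcam ran with none of them (between -0.17 and 0.29). The sums share libraries and classes and are not independent, so these are descriptions. Among 3815 other genes with at least 10 CPM on average, those most like Cdh1 were Perp, a desmosomal gene and p63 target (r = 0.996, at a mean of 2939 CPM in suprabasal-like, 445 CPM in placode-like and 702 CPM in basal-like cells), Cd9 and Slc44a2. Most like Cdh3 were Tmem176b (r = 0.994, at 69.5 CPM in suprabasal-like, 361 CPM in placode-like and 198 CPM in basal-like cells), Hdgfrp3 and Col27a1. Most like Epcam were Tuba1a (0.982), Gtf2ird1 and Fam117b. Most like Pvrl1 were Klf6 (0.9755), Atp2b4 and Ablim1, and most like Pvrl2 were Fxyd3 (0.989), Stx8 and Gatad2a. Most like Pvrl4 were Zfp750, a regulator of terminal epidermal differentiation (r = 0.995, at 161 CPM in suprabasal-like, 8.57 CPM in placode-like and 5.48 CPM in basal-like cells), Prss8 and Ccdc12.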

How the data were processed

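Both deposited tables hold whole UMI counts, one value for each gene and cell, as the values show. The submitters' processing notes name Cell Ranger, Seurat and mm10. The annotation, strand setting and the authors' cell filters are not given here. The number ending a barcode was taken as that of the placode-enriched library. Every cell had at least 2006 genes, so a minimum of 500 removed 0 cells.

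From the deposited counts, doublets were called with scrublet and cells clustered by the Leiden method (scanpy 1.11.5, resolution 1, 20 neighbours, 30 principal components of 1000 variable genes) on 7304 genes without markers, lists or members. That genes were left unscaled was settled after class sizes were seen. The class contrasts used the other 7288 genes plus the lists. Placode-like clusters needed 6 of 9 markers at 25% of the highest cluster's level, suprabasal-like ones 4 of 8 at 25%, basal-like ones 7 of 7 at 50% and melanoblast-like ones 5 of 5 at 50%. UMIs were summed per library and class and tested with edgeR 4.0.16 (R 4.3.3; TMM, filterByExpr, quasi-likelihood, Benjamini-Hochberg, threshold 0.05). Classes of a library come from the same pooled embryos, so the library is a block. The placode-enriched libraries differed beyond counting noise (chi-square 18.0 per degree of freedom). DESeq2 1.42.0, other scaling, filtering, thinning, clustering and left-out libraries were alternatives. The members and lists were chosen with earlier results of these data known. From each list, at most 2 genes of largest change past the threshold were named per direction and comparison, and for likeness the 3 of highest r. Some genes that this rule names are not reported here.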

Additional observations from a re-analysis of the deposited data

Results flagged for a closer look

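Epcam and Pvrl4 had suprabasal-like differences from basal-like cells that were not the same in the placode-enriched libraries and in total epithelium, by the class-by-sort terms of the fit over 9 sums (edgeR's quasi-likelihood test). For Epcam the term was 0.64 on the log2 scale, with within-library ratios of 0.50 and 0.75 in the placode-enriched libraries and -0.09 in total epithelium. It was 0.48 to 0.74 over the 4 alternatives of the same test and passed in each. For Pvrl4 the term was 0.90, with within-library ratios of 6.00 and 6.01 after the sort and 5.002 in total epithelium. It was 0.75 to 1.17 over the alternatives and did not pass with cells thinned to 5000 UMIs (1.17, adjusted p = 0.446). Beside these values, the basal-like cells lay mostly in cluster 9 after the sort and in clusters 0, 3 and 4 in total epithelium, and the suprabasal-like cells had summed suprabasal markers of 6088 and 5984 CPM after the sort against 15586 CPM in total epithelium. Their part in the 2 terms was not tested. Total epithelium is a single library, so the sort and that library cannot be told apart. A gene's own spread between pools hardly enters these calls.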

How the results depend on the processing

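Cdh3 and Epcam in placode-like against basal-like cells, and Cdh1, Cdh3, Pvrl1, Pvrl2 and Pvrl4 in both suprabasal-like comparisons, kept direction and call in all 15 alternatives, 1 of which (genes scaled before clustering) was chosen after seeing the data. Of the member fold changes 85 of 90 (placode-like against basal-like), 82 of 90 (suprabasal-like against basal-like), 83 of 90 (suprabasal-like against placode-like) and 35 of 54 (Shh against Sox9 single cells) stayed on their side of the threshold, and 30 of 30 for the sort. Of the called differences, those whose direction turned were Pvrl4 in placode-like against basal-like cells with unnamed clusters as basal (-0.45) and Epcam in suprabasal-like against basal-like cells with genes scaled before clustering (-0.27). The uncalled Pvrl1 difference between placode-like and basal-like cells also changed sign, to 0.01 with cells thinned and 0.02 without placode-enriched library 1. Over all alternatives run for it, the mean P-cadherin share was 11.1% to 15.2% in suprabasal-like, 75.4% to 80.4% in placode-like and 58.3% to 64.3% in basal-like cells.

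The counts of called genes moved more, and the cause was not tested. In placode-like against basal-like cells 2167 genes were called, against 1099 with DESeq2, 996 with cells thinned, 927 without the replicate block and 1134 to 2511 when a library was left out (1134 without placode-enriched library 1 and 1362 without library 2). In suprabasal-like against basal-like cells 1936 were called, against 1216 with DESeq2, 843 with cells thinned and 1090 without the block. In suprabasal-like against placode-like cells 1963 were called, against 894 with cells thinned and 1265 to 2051 without a library (1265 without placode-enriched library 2). For Shh against Sox9 single cells 1001 were called, against 211 with DESeq2, 315 thinned, 273 without the block and 362 to 985 without a library (362 without placode-enriched library 1, 422 without library 2); the members called went to 1 with DESeq2, 0 thinned, 0 without the block and 1 to 3 without a library, from 4. For the sort 4374 were called, against 2045 with DESeq2 and 2798 thinned. For class by sort 432 were called, against 110 and 120, and 1 of 2 members with cells thinned. Without the block, the member calls lost were Cdh1 in placode-like against basal-like cells, Epcam in both suprabasal-like comparisons and the 4 of Shh against Sox9 single cells. Thinning lowered the mean shares of cells with a UMI in suprabasal-like, placode-like and basal-like cells to 57.6%, 19.1% and 23.6% for Cdh1, 12.3%, 48.7% and 31.9% for Cdh3 and 70.1%, 6.19% and 1.98% for Pvrl4.

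For Pvrl4, basal-like sums of 32 to 165 UMIs limit the precision of its ratios.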
